A study of Rattus norvegicus with 34 samples.

Results

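Rats with a small myocardial infarction (S-MI) were compared with sham-operated rats by the transcriptome of the left ventricle (LV). The comparison uses 12 of the 34 arrays of the series, 6 from S-MI rats and 6 from sham rats, chosen by the sample titles alone. The S-MI group consisted of male Wistar rats whose left coronary artery was ligated near its origin and whose infarct fell in the smallest of 3 size classes. The sham group consisted of male Wistar rats in which the suture was passed but not tied. All hearts were taken 2 months after the operation, 1 array was run per rat, and the remaining LV arrays came from 6 rats with moderate (M-MI) and 5 rats with large infarction (L-MI). Whole LV was taken from sham rats, whereas only the part of the LV that looked unaffected was taken from infarcted rats, so the sampled region and the infarct cannot be told apart. An array reported the signal of 29214 transcript clusters, which are sets of probes that together represent a transcript, on a log2 scale. Of these, 15310 carried exactly 1 gene symbol, and they stood for 14506 named genes once the brightest cluster of each gene was kept.

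After a coronary occlusion the dead muscle is replaced by a collagen scar, while the surviving myocardium is remodelled to a degree that grows with the size of the infarct. Features known from remodelled rat hearts include deposition of extracellular matrix by fibroblasts, accumulation of macrophages, induction of the natriuretic peptides, and lower expression of the genes with which heart muscle oxidises fatty acids. The genes of these processes, and markers of the cell types that LV tissue can hold, were followed in 48 lists with 721 measured genes.

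All 14 cardiomyocyte markers had a mean signal above 10. For each of them every one of the 12 S-MI and sham LV arrays was above all 11 arrays of blood mononuclear cells in the same table, by 5.27 to 7.75 between the means, although the scaling between the tissues is not known. The LV array medians lay between 6.52 and 6.61, and pairs of LV arrays correlated between 0.985 and 0.996. The first principal component of the 23 LV arrays carried 17.5% of the variance and set S-MI replicates 4 and 5 and sham replicates 4 and 6 apart from the other 19 arrays, with scores from -137.8 to -112.4 against scores from -51.97 to 165.2. Each of the compared groups lost 2 arrays when these 4 were left out, and 15 of the 118 named differences then moved by over 1.5 times, as did 32 of the 48 list medians. A separate component analysis of only the 12 S-MI and sham arrays was less balanced. Its first component carried 21.8% of the variance. S-MI replicates 1, 4, 5 and 6 and sham replicates 4 and 6 scored from 19.68 to 107.9. The other S-MI and sham arrays scored from -111.1 to -43.84. On its second component S-MI replicates 1 and 6 stood apart, at -110.1 and -121.1 against scores from -25 to 74.77. Leaving these 2 out together with the 4 was not tested.

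No transcript cluster passed the thresholds of the study between S-MI and sham LV, a fold of at least 1.3 together with an adjusted p of at most 0.05 in limma (0% of 29214 called in either direction). The smallest adjusted p was 0.113. Analysis of variance without limma's moderation called 0 clusters as well. At an unadjusted p under 0.05, 1041 clusters were higher in S-MI LV (3.56% of all) and 809 were lower (2.77%). Centring each array on its median turned this balance to 768 higher and 1022 lower, and repeating the quantile normalization gave 983 and 971, so the split between directions depended on the scaling.

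The differences themselves were small and nearly symmetric around 0. Among the 14506 named genes, 7528 had a positive difference of S-MI minus sham (51.9%) and 6978 a negative one (48.1%), with a median of 0.00329 on the log2 scale. The share of positive differences was 46.8% after median centring. The middle 90% of the named genes lay between -0.13 and 0.144, and the middle 98% between -0.21 and 0.242. A fold of at least 1.3 was reached by 25 named genes that were higher in S-MI LV (0.172%) and by 14 that were lower (0.0965%), and a fold of at least 1.5 by 4 and 3. The plot of these differences shows the longer tail on the positive side.

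**Figure D1:**
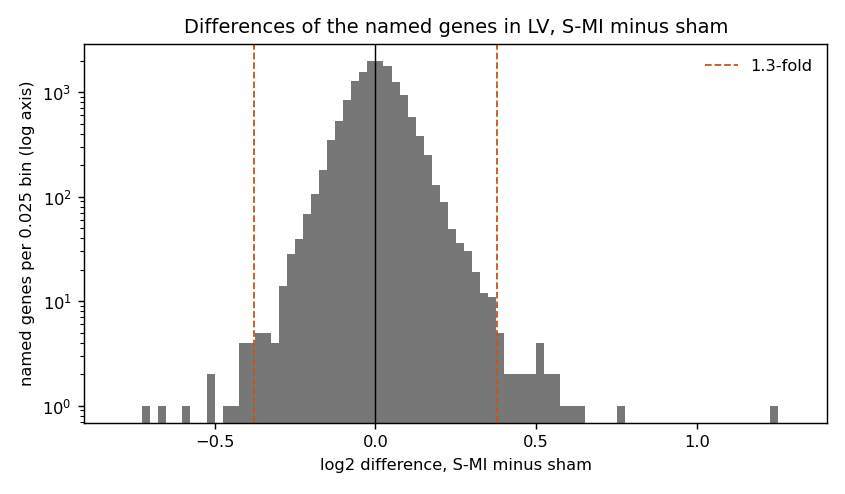
Histogram of the log2 difference, S-MI minus sham, of the 14506 named genes in bins of 0.025, with the number of genes on a log axis and dashed lines at a fold of 1.3 in either direction. Nearly all genes lie between the dashed lines, and 25 lie beyond the positive line and 14 beyond the negative line.

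The arrays bounded the differences closely. The standard error (SE) of a difference had a median of 0.0691, and its 95% interval reached a median of 0.143 to either side, which is a fold of 1.1. For 13655 named genes (94.1%) the whole interval lay within a fold of 1.3 in either direction, and for 99.9% it lay within a fold of 2. Replicates scattered somewhat more in S-MI than in sham LV. The standard deviation (SD) was larger in S-MI LV for 8476 named genes (58.4%), with a median of 0.118 in S-MI LV and 0.106 in sham LV.

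The balance of directions also varied with the level of expression, and with the scaling. Of the 1459 named genes with a mean signal of 10 or more, 59.3% were lower in S-MI LV, against 66.1% after median centring and 52% after repeated quantile normalization. Of the 4566 genes with a mean signal between 6 and 8, 56.9% were higher, against 51.8% after median centring and 49.8% after repeated quantile normalization. Brightly expressed genes of heart muscle are largely contractile and mitochondrial, and these groups are described below with the others.

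Separation of the 2 groups array by array was a second description of the shift. In 34 named genes all 6 S-MI arrays lay above all 6 sham arrays (0.234%), and in 28 all 6 lay below (0.193%). The differences of the 34 genes were between 0.11 and 0.75 with a median of 0.24, whereas the absolute differences of the 28 genes were between 0.06 and 0.35 with a median of 0.15.

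The largest difference of all named genes was that of Fgf7, a growth factor that mesenchymal cells secrete and that acts on epithelial cells. Its log2 signal was 6.70, 7.48 and 8.20 (lowest, median and highest) in S-MI LV and 5.64, 6.04 and 7.17 in sham LV. Sham replicate 5 stood high among the sham arrays and overlapped the 2 lowest S-MI arrays. The difference was 1.24 (SE 0.32, limma adjusted p = 0.389), and it stayed between 1.08 and 1.45 when any 1 array of either group was left out.

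Tas2r120, a bitter taste receptor gene, had a signal of 5.39, 5.86 and 6.29 in S-MI LV and 4.91, 5.09 and 5.26 in sham LV. The groups did not overlap, and the difference was 0.75 (SE 0.17, adjusted p = 0.303). A second receptor of this family, Tas2r121, differed by 0.65 (SE 0.20, adjusted p = 0.56), with arrays that overlapped. Both clusters were dim, with group means below the LV array medians of 6.52 to 6.61. Of the 4496 named genes with a mean signal under 6, 48.6% were higher in S-MI LV.

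Other large positive differences belonged to genes of unlike function. Epha3, an ephrin receptor kinase, differed by 0.62 (SE 0.36). H19, an imprinted noncoding RNA, differed by 0.58 (SE 0.22), and Adgrg2, an adhesion receptor coupled to G proteins, by 0.50 (SE 0.13). Scand1, which encodes a SCAN domain protein, had a signal of 11.61, 11.99 and 12.08 in S-MI LV and 10.91, 11.56 and 11.83 in sham LV. Its arrays overlapped, and the difference was 0.53 (SE 0.19, adjusted p = 0.665).

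Several of the large differences came from genes whose arrays fell on separate levels within a group. Retsat, the retinol saturase, was at 11.46, 11.79 and 11.98 in 3 S-MI arrays and between 9.25 and 9.43 in the other 3, and in sham LV it was at 11.16 and 11.21 in 2 arrays and between 9.34 and 9.46 in the other 4. The mean difference of 0.57 (SE 0.56) came with 3 high arrays against 2, and it was 0.283 without S-MI replicate 4 and 0.321 without S-MI replicate 3. Pop5, a subunit of ribonuclease P, showed the reverse arrangement. It was between 8.91 and 9.0 in all 6 S-MI arrays, whereas sham arrays were between 9.07 and 9.19 in 3 rats and between 7.52 and 7.79 in the other 3. Gpm6a, a membrane glycoprotein best known from neurons, was at 8.10 to 8.43 in 4 S-MI arrays and at 6.70 and 6.90 in 2, against 8.07 and 8.20 in 2 sham arrays and 6.61 to 6.99 in 4.

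The largest negative difference was that of Penk, which encodes proenkephalin, the precursor of the opioid enkephalins. Its signal was 10.05, 11.07 and 12 in S-MI LV and 11.53, 11.74 and 12.26 in sham LV. Of the S-MI arrays 4 lay below every sham array, while replicates 3 and 5 lay within the sham range. The difference was -0.71 (SE 0.23, adjusted p = 0.586), and -0.991 without the 4 arrays that stood apart on the first component.

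Art1, an ADP-ribosyltransferase of muscle, had a signal of 6.30, 7.12 and 7.56 in S-MI LV and 7.11, 7.55 and 8.36 in sham LV. The groups overlapped, and the difference was -0.65 (SE 0.28, adjusted p = 0.729). Chrna1, the alpha subunit of the acetylcholine receptor of muscle, differed by -0.42 (SE 0.19) and Mid1ip1, a regulator of fatty acid synthesis, by -0.50 (SE 0.18). Cytl1, a secreted cytokine-like protein, differed by -0.51 (SE 0.21), and the cadherin gene Cdh19 by -0.47 (SE 0.17).

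Some of the most negative values were smaller without 1 rat. Pyroxd2, which encodes a mitochondrial protein with an oxidoreductase domain, was at 5.69 in S-MI replicate 2 and between 7.72 and 8.77 in the other S-MI arrays, against 8.12 to 8.89 in sham LV. Its difference was -0.59 (SE 0.36) with all arrays and -0.124 without that replicate. Rxfp1, the relaxin receptor, differed by -0.41 (SE 0.27), and by -0.227 without sham replicate 4 and -0.273 without sham replicate 2. Sh2d4a, an SH2 domain adaptor, differed by -0.40 (SE 0.26) and by -0.259 without S-MI replicate 6, and the phosphatase gene Dusp15 by -0.42 (SE 0.21) and by -0.275 without S-MI replicate 1.

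Among the named genes, the smallest p-values belonged to modest differences between tight groups. Clint1, which binds clathrin in vesicle transport, had a signal of 10.33, 10.44 and 10.57 in S-MI LV and 10.12, 10.20 and 10.26 in sham LV. Every S-MI array was above every sham array, and the difference of 0.26 (SE 0.05) had an adjusted p of 0.113. Among the processing alternatives this p ranged from 0.0532 with array weights to 0.54.

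Wdr5, a scaffold of histone methyltransferase complexes, was at 8.38, 8.51 and 8.62 in S-MI LV and 8.16, 8.22 and 8.38 in sham LV. The groups met at 8.38 to 2 decimals without overlapping, and the difference was 0.25 (SE 0.05, adjusted p = 0.22). Npdc1, a gene of neural differentiation, differed by 0.25 (SE 0.06, adjusted p = 0.294) without overlap. Fabp5, a fatty acid binding protein of macrophages, endothelium and skin, was at 6.73, 6.84 and 7.17 in S-MI LV and 6.51, 6.57 and 6.69 in sham LV. Its groups did not overlap either, and the difference was 0.29 (SE 0.07, adjusted p = 0.303).

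On the negative side, Hnrnpa2b1, an RNA-binding protein of splicing, was represented by a pair of clusters that both differed in the same direction. The brighter was at 10.21, 10.25 and 10.31 in S-MI LV and 10.34, 10.44 and 10.48 in sham LV, with no overlap and a difference of -0.17 (SE 0.04, adjusted p = 0.227). The dimmer was at 8.80, 9.0 and 9.33 in S-MI LV and 9.23, 9.40 and 9.57 in sham LV, with a difference of -0.38 (SE 0.08, adjusted p = 0.22). Dguok, the deoxyguanosine kinase that supplies mitochondria with precursors of DNA, was at 9.82, 9.88 and 10 in S-MI LV and 10.02, 10.18 and 10.27 in sham LV. It did not overlap and differed by -0.27 (SE 0.06, adjusted p = 0.22). The peptidyl-prolyl isomerase gene Fkbp9 differed by -0.21 (SE 0.05, adjusted p = 0.34), and Map4k1, a kinase of blood cells, by -0.36 (SE 0.08, adjusted p = 0.303).

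**Figure D2:**
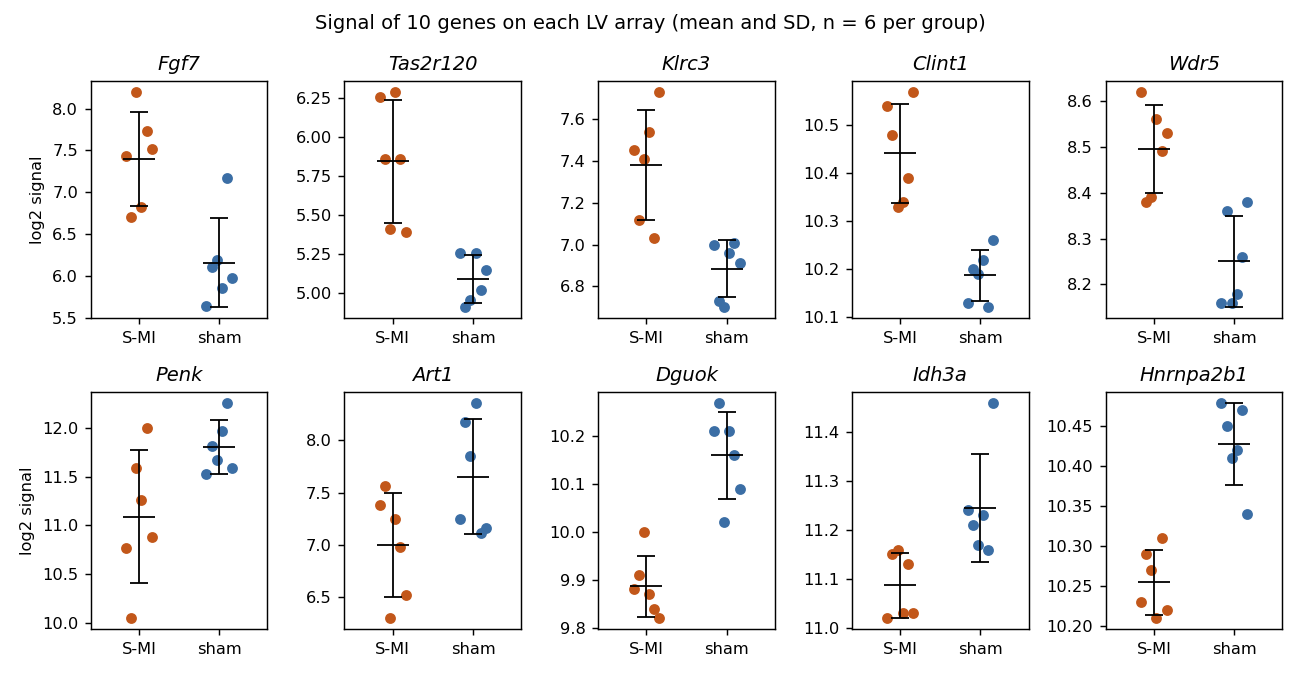
Log2 signal of 10 genes on each of the 6 S-MI arrays (left) and 6 sham arrays (right), each point being 1 rat, with the mean and SD in black. Fgf7, Penk and Art1 have large differences but overlap, and Tas2r120, Klrc3, Clint1, Wdr5, Dguok, Idh3a and Hnrnpa2b1 separate the groups.

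The gene lists showed where many small differences ran the same way. The quartiles of all named genes were -0.0468 and 0.0526, and the medians of 8 lists lay above this range and those of 3 below it. These counts describe the lists and are not tests of them, since the lists were drawn up with earlier results of these data known.

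Macrophage and monocyte markers had the highest median of the lists. All 18 measured markers were higher in S-MI LV, with a median difference of 0.166 against 0.00329 for all named genes. Of these, 4 had an unadjusted p under 0.05, where 3.56% of all named genes were higher at that threshold, and 2 separated the groups (0.234% of all named genes). With only the S-MI and sham arrays in the fit, 10 had an unadjusted p under 0.05, where 3.52% of all named genes were higher. The smallest adjusted p in the list was 0.556. In bulk tissue, more cells of a type and more RNA per cell cannot be told apart.

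Lgals3, the galectin of activated macrophages, was at 8.09, 8.16 and 8.61 in S-MI LV and 7.69, 7.92 and 8.16 in sham LV, a difference of 0.33 (SE 0.10) with overlapping arrays. Cd14, the coreceptor for lipopolysaccharide, was at 7.72, 7.92 and 8.44 in S-MI LV and 7.39, 7.63 and 7.87 in sham LV, a difference of 0.32 (SE 0.12). The complement component C1qb, which tissue macrophages produce, was at 8.94, 9.13 and 9.43 in S-MI LV and 8.84, 8.90 and 8.94 in sham LV, a difference of 0.26 (SE 0.12). The groups of C1qb met at 8.94 to 2 decimals without overlapping. All S-MI arrays lay above the sham arrays, and the same held for Ctss, the lysosomal protease cathepsin S, with a difference of 0.20 (SE 0.10).

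The remaining macrophage genes had differences of the same order. Csf1r, the receptor that macrophages need to survive, differed by 0.17 (SE 0.09) and Cd68, a lysosomal glycoprotein, by 0.20 (SE 0.11). Mrc1, the mannose receptor of resident macrophages, differed by 0.16 (SE 0.09), the Fc receptor gene Fcgr1a by 0.23 (SE 0.09), and C1qc by 0.26 (SE 0.13). None of these had an adjusted p under 0.5.

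Averaged over the 18 markers, the level was 8.096, 8.184 and 8.411 in S-MI LV and 7.898, 8.036 and 8.109 in sham LV. S-MI replicate 6 was the highest of its group, and S-MI replicate 2 was the only S-MI array below the highest sham array. The median difference stayed between 0.141 and 0.2 when any 1 array was left out and was 0.212 without the 4 arrays apart. Median centring gave 0.157 and repeated quantile normalization 0.154.

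Genes of allied function lay near them. Of 18 measured complement and coagulation genes, 3 of which are also macrophage markers, 16 were higher in S-MI LV, with a median of 0.0825, or 0.124 without the 4 arrays apart, and 3 at an unadjusted p under 0.05 (3.56% of all named genes). F13a1, the A subunit of the fibrin-stabilizing factor and a product of resident macrophages, was at 8.65, 8.78 and 9.02 in S-MI LV and 8.21, 8.44 and 8.62 in sham LV. Its groups did not overlap, and the difference was 0.36 (SE 0.13, adjusted p = 0.665). Alox5ap, which presents arachidonic acid to the lipoxygenase of leukotriene synthesis, was at 8.63, 8.74 and 8.78 in S-MI LV and 8.34, 8.45 and 8.51 in sham LV, also without overlap. Its difference was 0.28 (SE 0.07, adjusted p = 0.445), and that of Cybb, the catalytic subunit of the phagocyte oxidase, was 0.25 (SE 0.10) without overlap. These 2 genes came from other lists. Alox5ap was on the iron and acute phase list, where 10 of 15 genes were higher, with a median of 0.0393. Cybb was on the oxidative stress defence list, where 13 genes were higher and 11 lower, with a median of 0.0106. The part of the macrophage marker level in these differences was not tested.

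Lymphocyte and interferon genes differed less uniformly. Of 13 T cell markers, 11 were higher in S-MI LV with a median of 0.0886, or 0.144 without the 4 arrays apart, led by the receptor chain gene Cd3g with a difference of 0.39 (SE 0.15). Of 22 interferon-stimulated genes, 17 were higher with a median of 0.1, and none had an unadjusted p under 0.05. Their median SE was 0.176, which includes the spread of the other LV arrays, among them an M-MI array with a mean level of 8.783 over the list. The mean level was 7.592, 7.765 and 7.98 in S-MI LV and 7.562, 7.656 and 7.809 in sham LV. With only the S-MI and sham arrays in the fit the median SE was 0.0864, and 4 genes of the list were higher at an unadjusted p under 0.05 (3.52% of all named genes). Of 14 antigen presentation genes 9 were higher, with a median of 0.0362 or 0.095 without the 4 arrays apart, including the class II genes RT1-Da (0.22, SE 0.10) and RT1-DMa (0.20, SE 0.09) and the peptide transporter gene Tap1 (0.21, SE 0.09).

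Other leukocyte lists had medians nearer 0 or below it. Of 12 neutrophil markers 9 were lower in S-MI LV, with a median of -0.0146, and of 13 mast cell markers 9 were lower, with a median of -0.0716. The mast cell median was 0.0329 without the 4 arrays apart. Of 26 chemokine and cytokine genes, 11 were higher and 15 lower, with a median of -0.0141. The largest of these differences was that of Ccl2, which attracts monocytes, at 0.37 (SE 0.26). Il1rn differed by 0.23 (SE 0.07, limma adjusted p = 0.615). It was the 1 member of the list at an unadjusted p under 0.05, where 3.56% of all named genes were higher. The markers of endothelium, smooth muscle and pericytes had medians of 0.00474 and 0.00626.

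**Figure D3:**
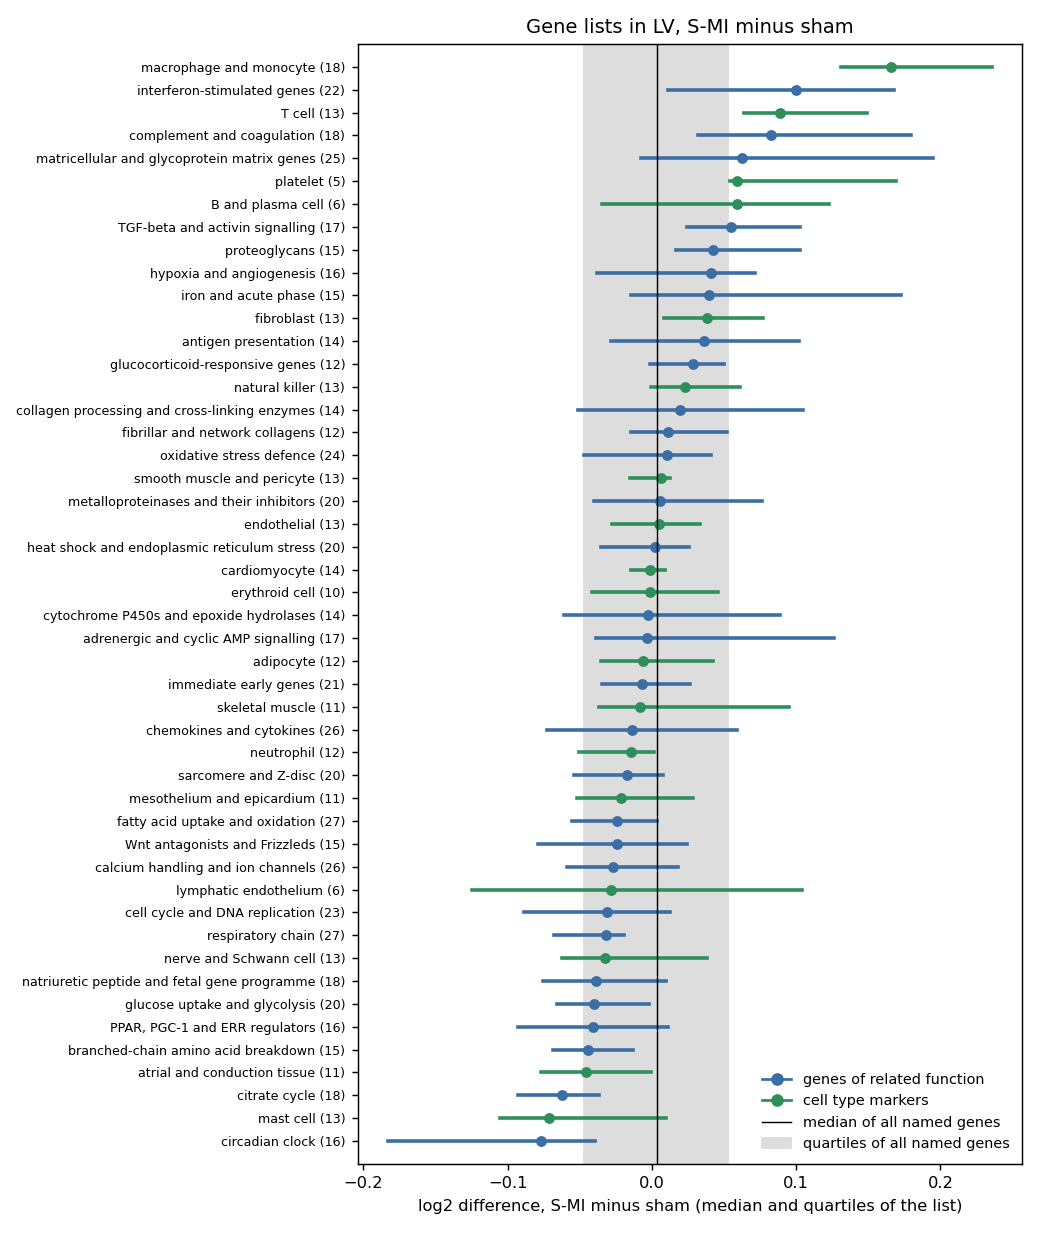
Median (point) and quartiles (line) of the log2 difference, S-MI minus sham, for 48 gene lists with the number of measured genes in parentheses, against the median and quartiles of all named genes (black line and grey band). The macrophage and monocyte list has the highest median, 0.166, and the circadian clock list the lowest, -0.0766.

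Among the lists of extracellular matrix genes, the matricellular and proteoglycan lists had mostly higher values in S-MI LV. Of 25 matricellular and glycoprotein genes, 18 were higher with a median of 0.0626, and 5 had an unadjusted p under 0.05, all higher (3.56% of all named genes). Leaving out 1 array moved that median between 0.0215 and 0.0901. Of 15 proteoglycan genes 12 were higher, with a median of 0.0426.

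Thbs1, the matricellular protein thrombospondin-1 that releases active TGF-beta, was at 8.20, 8.43 and 9.31 in S-MI LV and 7.81, 8.03 and 8.31 in sham LV. The arrays overlapped slightly, and the difference was 0.51 (SE 0.21, adjusted p = 0.723). The microfibril genes Fbn1, which encodes fibrillin-1, and Mfap5 differed by 0.39 (SE 0.13) and 0.33 (SE 0.10). Fbln2, a fibulin of the matrix, differed by 0.25 (SE 0.12), Ltbp1, which holds latent TGF-beta in the matrix, by 0.15 (SE 0.07), and the large proteoglycan Vcan by 0.34 (SE 0.15).

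Enzymes that cross-link collagen included 3 of the 14 members of their list that were higher at an unadjusted p under 0.05 (3.56% of all named genes), all of them lysyl oxidases. Loxl2 was at 7.49, 7.70 and 7.81 in S-MI LV and 7.29, 7.46 and 7.53 in sham LV, a difference of 0.24 (SE 0.08, adjusted p = 0.616) with overlap. Loxl1 differed by 0.36 (SE 0.15), and Lox by 0.26 (SE 0.10), which was 0.173 without S-MI replicate 1. The list as a whole had 7 genes higher and 7 lower.

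Collagen genes had small differences in both directions. Of 12 measured collagens 7 were higher and 5 lower, with a median of 0.0111 that turned to -0.00384 after repeated quantile normalization. Col14a1, a collagen that sits on fibril surfaces, was the member without overlap, at 8.36, 8.46 and 8.52 in S-MI LV and 8.24, 8.27 and 8.34 in sham LV, a difference of 0.17 (SE 0.10, adjusted p = 0.851). Among the metalloproteinases and their inhibitors, 11 were higher and 9 lower. Timp1, an inhibitor, differed by 0.34 (SE 0.13), the protease gene Adamts4 by 0.19 (SE 0.09), and Mmp14, a membrane-bound collagenase, by 0.22 (SE 0.10), or 0.141 without S-MI replicate 1.

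Postn, which encodes the periostin of activated fibroblasts, was at 5.85, 6.13 and 6.65 in S-MI LV and 5.57, 5.83 and 6.08 in sham LV, a difference of 0.37 (SE 0.22, adjusted p = 0.849). Fn1, the fibronectin gene, differed by 0.24 (SE 0.15). Of 17 genes of TGF-beta and activin signalling 15 were higher in S-MI LV, with a median of 0.055, and none had an unadjusted p under 0.05. Fibroblast markers had a median of 0.0379, from 0.0131 without sham replicate 5 to 0.0662 without S-MI replicate 5, with 10 of 13 higher, and their part in the matrix differences was not tested.

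Most genes of energy metabolism had lower values in S-MI LV. Of 18 genes of the citrate cycle and pyruvate oxidation 17 were lower, with a median of -0.0624, and 4 had an unadjusted p under 0.05, where 2.56% of all named genes were lower at that threshold. With only the S-MI and sham arrays in the fit, 5 were lower at that threshold (2.2% of all named genes). Of 27 respiratory chain genes 24 were lower, with a median of -0.0318 and 4 at that threshold. The median stayed below 0 under every alternative, between -0.0819 and -0.0379 for the citrate cycle and between -0.057 without the 4 arrays apart and -0.0198 for the respiratory chain. The median signals of these lists were 11.8 and 12.5, and 59.3% of all genes with a signal of 10 or more were lower.

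Idh3a, the catalytic subunit of the isocitrate dehydrogenase of the cycle, was at 11.02, 11.08 and 11.16 in S-MI LV and 11.16, 11.22 and 11.46 in sham LV. The groups did not overlap, although they met at 11.16 to 2 decimals, and the difference was -0.16 (SE 0.06, adjusted p = 0.695). Pdk2, a kinase that inhibits pyruvate dehydrogenase, differed by -0.10 (SE 0.04). Pdhb, a subunit of that dehydrogenase, and Suclg2, a subunit of succinyl-CoA ligase, each differed by -0.12 (SE 0.05 and 0.06).

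In the respiratory chain, the complex I subunit gene Ndufa5 was at 10.18, 10.29 and 10.35 in S-MI LV and 10.32, 10.42 and 10.52 in sham LV, a difference of -0.15 (SE 0.05, adjusted p = 0.667). The succinate dehydrogenase genes Sdhb and Sdhd differed by -0.10 (SE 0.04) and -0.09 (SE 0.04), and Uqcrc1 of complex III by -0.09 (SE 0.04). Averaged over the 18 citrate cycle genes, the level was 11.801, 11.865 and 11.885 in S-MI LV and 11.863, 11.918 and 11.954 in sham LV, and the groups overlapped. The cardiomyocyte markers averaged 13.011, 13.018 and 13.057 in S-MI LV and 12.957, 13.011 and 13.042 in sham LV, and their part in these differences was not tested.

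Further mitochondrial genes, and Phkb of glycogen breakdown, were among the 28 that separated the groups downward. They were picked out after their values had been seen. The share of mitochondrial genes among the 28 was not compared with their share among all named genes. Ndufab1, the acyl carrier protein of mitochondria, was at 12.36, 12.38 and 12.48 in S-MI LV and 12.48, 12.52 and 12.54 in sham LV, a difference of -0.12 (SE 0.03, adjusted p = 0.523) between groups that met at 12.48 to 2 decimals. Pdk1, another kinase of pyruvate dehydrogenase, was at 11.14, 11.18 and 11.28 in S-MI LV and 11.33, 11.38 and 11.44 in sham LV, a difference of -0.18 (SE 0.06, adjusted p = 0.56). Pdpr, a subunit of the phosphatase that counteracts these kinases, differed by -0.14 (SE 0.05). Timm44, which drives protein import, differed by -0.21 (SE 0.05), and Dmac2, an assembly factor of complex I, by -0.20 (SE 0.04). Phkb, a subunit of the kinase that activates glycogen breakdown, and Msra, which repairs oxidised methionine, differed by -0.21 (SE 0.05) and -0.35 (SE 0.10).

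Of 27 measured fatty acid oxidation genes 20 were lower, with a median of -0.0239, and none had an unadjusted p under 0.05. The median was -0.0515 without S-MI replicate 2 and -0.00794 without sham replicate 6. Cpt2, the inner carnitine palmitoyltransferase, was at 11.60, 11.69 and 11.76 in S-MI LV and 11.72, 11.81 and 11.84 in sham LV, a difference of -0.11 (SE 0.05). Glycolysis genes had a median of -0.04 with 15 of 20 lower. Pgk1 and Pgam2, which follow each other in the lower part of the pathway, each differed by -0.14 (SE 0.05 and 0.06), the second by -0.076 without S-MI replicate 6, whereas the phosphofructokinase isoform gene Pfkp differed by 0.22 (SE 0.08). Genes of branched-chain amino acid breakdown had a median of -0.0442, with 12 of 15 lower.

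**Figure D4:**
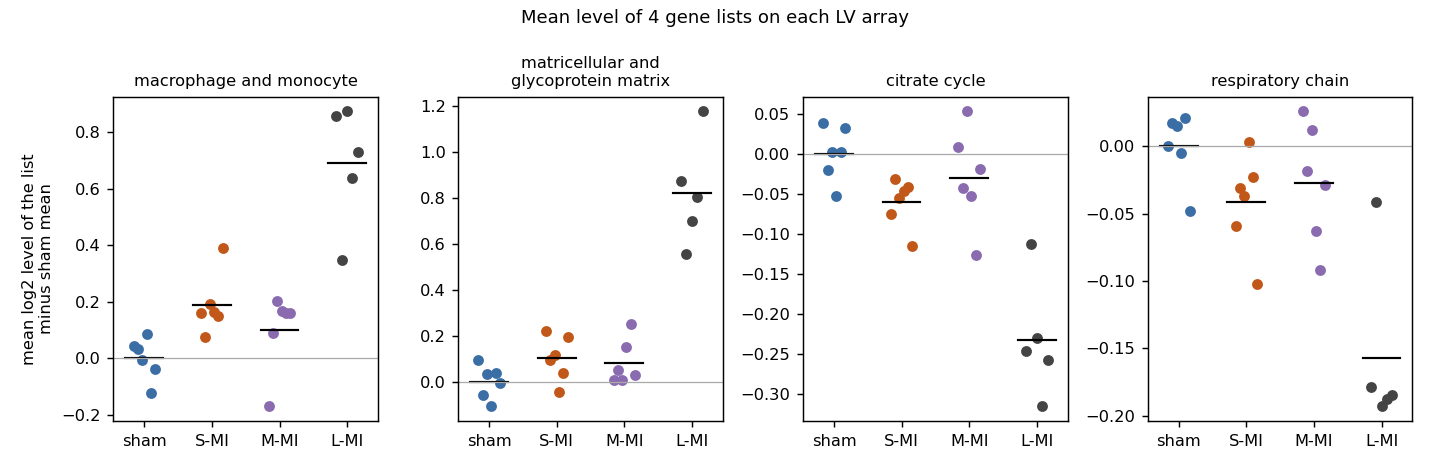
Mean log2 level of 4 gene lists on each LV array, shown as the difference from the sham mean, for 6 sham, 6 S-MI, 6 M-MI and 5 L-MI arrays, with bars at the group means. S-MI arrays lie mostly above the sham arrays in the macrophage list and mostly below them in the citrate cycle list, with overlap in both. The L-MI group means lie farther away in the same panels, where the ranges of the L-MI and S-MI arrays overlap.

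Natriuretic peptide genes did not differ in 1 direction. Nppa, which encodes atrial natriuretic peptide, was at 11.32, 11.45 and 12.03 in S-MI LV and 10.71, 11.23 and 11.78 in sham LV, a difference of 0.32 (SE 0.27, adjusted p = 0.915). Nppb, which encodes the B-type peptide, was at 10.50, 12.37 and 12.77 in S-MI LV and 12.12, 12.61 and 12.77 in sham LV, a difference of -0.45 (SE 0.26). S-MI replicate 4 was far below the rest of its group, and without it the Nppb difference was -0.127, or -0.0999 without the 4 arrays apart. Corin, the protease that activates the atrial peptide, was at 10.79, 10.93 and 11.18 in S-MI LV and 10.31, 10.60 and 10.96 in sham LV. The groups overlapped, and the difference was 0.37 (SE 0.10, adjusted p = 0.408).

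Contractile genes had differences close to 0. Of 20 sarcomere and Z-disc genes 13 were lower, with a median of -0.0175, and their median SE of 0.0413 was small. The cardiomyocyte markers had a median difference of -0.00117, with 6 of 14 higher.

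Of 26 genes of calcium handling and ion channels 18 were lower in S-MI LV, with a median of -0.0272 and 3 at an unadjusted p under 0.05 (2.56% of all named genes). The median was -0.00893 without sham replicate 4. Hcn2, a pacemaker channel gene, was at 8.57, 9.06 and 9.31 in S-MI LV and 9.20, 9.30 and 9.40 in sham LV, a difference of -0.30 (SE 0.10, adjusted p = 0.615). Scn4b, a beta subunit of the sodium channel, was at 9.11, 9.48 and 9.82 in S-MI LV and 9.60, 9.86 and 10.09 in sham LV, a difference of -0.40 (SE 0.16, adjusted p = 0.72). Kcnq1, a repolarizing potassium channel gene, differed by -0.11 (SE 0.05). All of these overlapped between the groups.

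Adrenergic and cyclic AMP genes held small differences in both directions, with 4 of 17 higher and 2 lower at an unadjusted p under 0.05, where the shares of all named genes were 3.56% and 2.56%. The phosphodiesterase genes Pde4b and Pde3a differed by 0.15 (SE 0.05) and 0.14 (SE 0.06), and the receptor kinase gene Grk5 by 0.22 (SE 0.11). The beta-1 receptor gene Adrb1 differed by 0.13 (SE 0.05), or 0.0799 without S-MI replicate 4. Against these, the protein kinase A subunit genes Prkar2a and Prkaca differed by -0.15 (SE 0.06) and -0.11 (SE 0.05).

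With all arrays the lowest list median, -0.0766, was that of the circadian clock genes, of which 13 of 16 were lower. None had an unadjusted p under 0.05, and the median was -0.157 without sham replicate 3 and -0.0369 without S-MI replicate 1. Without the 4 arrays apart it was -0.118, and the median of the erythroid cell markers was lower at -0.137. Bmal1, an activator of the clock, was at 7.26, 7.98 and 9.07 in S-MI LV and 6.72, 7.58 and 7.96 in sham LV, a difference of 0.48 (SE 0.32), or 0.251 without S-MI replicate 1. The hour at which each heart was taken is not given in the sources used here. The vascular growth factor genes Vegfa and Vegfb differed by -0.15 (SE 0.06) and -0.18 (SE 0.06). They were the 2 members of the hypoxia and angiogenesis list that were lower at an unadjusted p under 0.05 (2.56% of all named genes). That list went the other way, with 11 of 16 genes higher, 5 lower and a median of 0.0412.

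Among the 34 named genes that separated the groups upward were a pair of natural killer cell receptor genes outside the natural killer list, picked out after their values had been seen. Klrc3, a lectin-like receptor of the NKG2 family, was at 7.03, 7.43 and 7.73 in S-MI LV and 6.70, 6.93 and 7.01 in sham LV. The groups did not overlap, and the difference was 0.50 (SE 0.14, adjusted p = 0.508). Klra22, a receptor of the Ly49 family, was at 5.83, 5.90 and 6.11 in S-MI LV and 5.54, 5.68 and 5.78 in sham LV, a difference of 0.28 (SE 0.06, adjusted p = 0.22), also without overlap.

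Klrd1, the partner chain of the NKG2 receptors, was at 6.42, 6.70 and 6.92 in S-MI LV and 6.05, 6.35 and 6.44 in sham LV, a difference of 0.41 (SE 0.11, adjusted p = 0.482). Klrc1 and Klrc2 differed by 0.31 (SE 0.12) and 0.32 (SE 0.13). The natural killer list as a whole was mixed. Of its 13 members 9 were higher and 4 lower, none separated the groups, and the median was 0.0227, from -0.0151 without S-MI replicate 3 to 0.115 without S-MI replicate 2. Among effector genes of these cells, Prf1, the perforin gene, differed by -0.11 and Gzmb, a granzyme gene, by 0.05. With only the S-MI and sham arrays in the fit, 3 members of the list were higher and 1 lower at an unadjusted p under 0.05. The shares of all named genes were 3.52% and 2.2%.

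These receptors and the bitter taste receptors are neighbours on rat chromosome 4, and the whole stretch between Klrb1a and Tas2r140 was examined after these values had been seen. It holds 60 named genes. Of these, 41 were higher in S-MI LV and 19 lower, where 51.9% of all named genes were higher. At an unadjusted p under 0.05, 9 were higher and 1 lower, where the shares of all named genes were 3.56% and 2.56%, and 3 separated the groups upward (0.234% of all). The stretch was chosen around the genes with large differences, which are among those counted. The 39 lectin-like receptors had a median of 0.0327 and the 13 taste receptors 0.0411. Probes of these multigene families can share sequence, so the signals of neighbours may not be independent measurements.

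**Figure D5:**
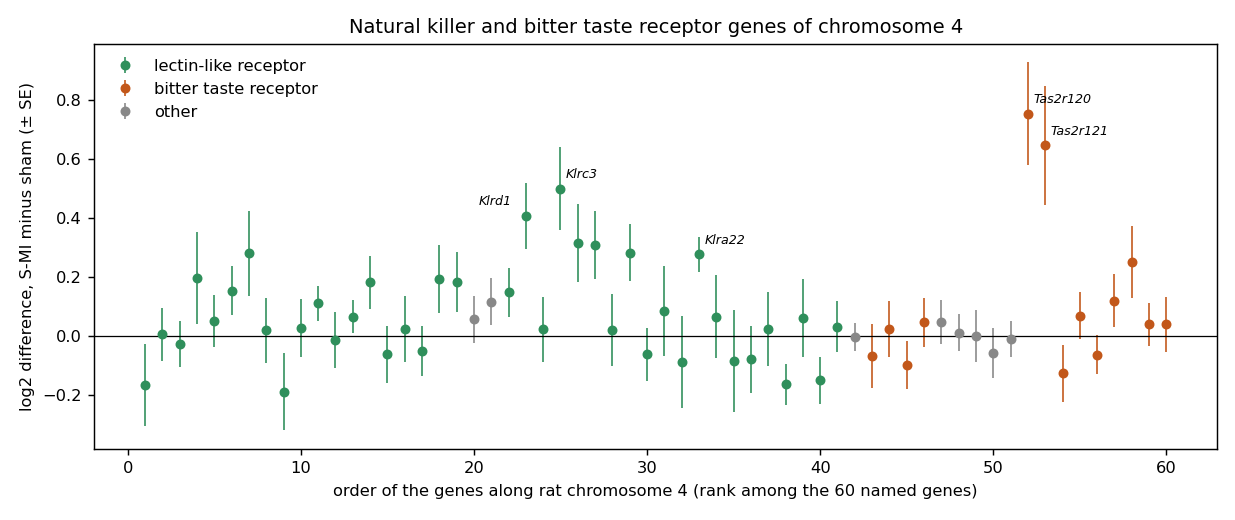
Log2 difference, S-MI minus sham, with its SE, of the 60 named genes between Klrb1a and Tas2r140 in their order along rat chromosome 4, coloured by family. Klrc3 at 0.50, Klra22 at 0.28 and Tas2r120 at 0.75 are the genes whose S-MI arrays all lie above the sham arrays, and most of the other genes lie near 0.

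Transcript clusters without a symbol in the platform annotation held the smallest p-values together with Clint1. Cluster 10866144 was at 6.49, 6.61 and 6.75 in S-MI LV and 6.00, 6.17 and 6.30 in sham LV, a difference of 0.47 (SE 0.08, adjusted p = 0.113). The study assigned it to Klra7, a killer cell lectin-like receptor gene of the Ly49 family. Cluster 10866142 was at 5.96, 6.31 and 6.53 in S-MI LV and 4.86, 5.44 and 5.68 in sham LV, a difference of 0.93 (SE 0.17, adjusted p = 0.113). Cluster 10866140 differed by 0.57 (SE 0.10, limma adjusted p = 0.113) and cluster 10866101 by 0.37 (SE 0.07, limma adjusted p = 0.22). Among unnamed clusters that were lower, 10700191 was at 6.65, 7.27 and 7.43 in S-MI LV and 7.54, 7.75 and 7.97 in sham LV, a difference of -0.64 (SE 0.13, adjusted p = 0.22). None of these clusters overlapped between the groups, and none was counted in the chromosome 4 stretch, which was summarised by its named genes only.

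The larger infarcts give a scale for these values, although all contrasts share the S-MI arrays. List means did not always follow infarct size. In sham, S-MI, M-MI and L-MI LV the macrophage means were 8.022, 8.21, 8.123 and 8.712. The matricellular means were 8.219, 8.323, 8.302 and 9.042 in the same order, and the collagen means 7.396, 7.419, 7.43 and 8.015. Against M-MI LV, S-MI LV had 0 clusters past both thresholds in limma (0% in either direction). At an unadjusted p under 0.05, 1910 were higher and 1736 lower, more than the 1041 and 809 against sham LV. On the first component of all LV arrays, those that stood apart were S-MI and sham arrays only. M-MI arrays scored from 16.91 to 51.41 and L-MI arrays from 6.637 to 165.2, against -137.8 to 64.83 in S-MI LV. The part of this component in the unadjusted counts against M-MI LV was not tested. Against L-MI LV, 266 clusters were called higher in S-MI LV (0.911%) and 459 lower (1.57%), among them 171 (1.18%) and 341 (2.35%) of the named genes. The macrophage list had 14 of its 18 members called lower in S-MI than in L-MI LV, the matricellular list 15 of 25, and the collagens 7 of 12. Called higher were 10 of 27 fatty acid oxidation genes, but only 1 of 18 citrate cycle genes and 0 of 27 respiratory chain genes.

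Some individual genes had much larger differences on that scale. Postn was at 5.85, 6.13 and 6.65 in S-MI LV and 7.80, 9.10 and 9.41 in L-MI LV, a difference of -2.63 (SE 0.23, adjusted p = 8.1e-07). Nppa differed by -1.58 (SE 0.29, adjusted p = 0.00121). Cyp2e1, a cytochrome P450, differed by 2.54 (SE 0.41, adjusted p = 0.000403) and Pdk4, a kinase of pyruvate dehydrogenase, by 0.97 (SE 0.20, adjusted p = 0.00375), both higher in S-MI LV. S-MI minus sham differences of the same genes were 0.37 for Postn, 0.32 for Nppa, 0.33 for Cyp2e1 and 0.05 for Pdk4, none with an adjusted p under 0.5. Other genes described above were close to their L-MI level. S-MI minus L-MI was -0.19 for Fgf7 (SE 0.33, limma adjusted p = 0.79), 0.04 for Adgrg2 (SE 0.13) and -0.10 for Corin (SE 0.10). Against these, Tas2r120 was higher in S-MI than in L-MI LV by 0.71 (SE 0.18, adjusted p = 0.0168). Wdr5 was higher by 0.33 (SE 0.05, adjusted p = 0.000537).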

How the data were processed

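RNA from LV of rats with and without infarction was hybridised to Affymetrix Rat Gene 1.0 ST arrays, and RNA integrity was above the threshold of the study for all samples. The deposited values are log2 signals that the authors made from the scans by robust multi-array averaging (RMA) in Partek, whose versions are not given in the sources used here. No source names the base of the logarithm, and log2 was assumed because RMA returns it. RMA quantile-normalizes the arrays, which largely removes shifts common to all genes. The medians of the LV arrays still lay between 6.52 and 6.61 in the deposited values. Groups were taken from the sample titles, and the 6 S-MI and 6 sham arrays were treated as separate rats, while the 11 blood cell arrays served only to check the tissue label. The description of L-MI replicate 1 differs from its title, which was followed.

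Clusters with exactly 1 symbol in the platform annotation were named (15310 of 29214), with 15279 symbols matched by Entrez ID and 6 by accession to the RefSeq GRCr8 table, and 323 clusters with several symbols and 13581 with none were left unnamed. One linear model over the 23 LV arrays with a mean per group was fitted in limma 3.58.1 (R 4.3.3), with Benjamini-Hochberg adjustment over all 29214 clusters. The code was tested on simulated data. Named genes are the 12 largest differences and the 6 smallest p in each direction, at most 3 genes per list by p-value, genes of the study's RT-qPCR panel, and genes picked after their values were seen, among them the separated mitochondrial genes, the chromosome 4 stretch and the unnamed clusters. The members and lists were chosen with earlier results of these data known. Figures were drawn with Python 3.11.15 and matplotlib 3.10.9. The number of arrays limits the precision.

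Replicate numbers occur in both groups. Deviations of same-numbered arrays correlated between -0.111 and 0.261, and 2 of 6 pairs were above 0.1. However, 3 of 6 S-MI arrays correlated best with the sham array of their own number. Because the correlations were low, the numbers were not taken to pair rats, and the replicate number was fitted as a block only among the alternatives. Alternatives covered the samples in the fit, moderation, array weights, dim or unnamed clusters, centring, quantile normalization, a replicate block, the 4 arrays apart, the first component as a covariate, thresholds, and leaving out each array in turn.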

Additional observations from a re-analysis of the deposited data

Results flagged for a closer look

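In each group of 6 arrays, the highest or lowest value was compared with its nearest neighbour by Dixon's criterion, which chance passes in about 1 in 20 groups. Of 332 groups of values examined for the named genes and the lists, 18 passed (5.42%). None of the values below was removed, and no cause was tested.

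In S-MI LV, replicate 2 was low for Pyroxd2 at 5.69 and replicate 4 was low for Nppb at 10.50. Replicate 5 was high for Fabp5 at 7.17, replicate 6 was high for Cd14 at 8.44 and low for Pdpr at 9.85. Among mean levels of lists, replicate 6 was high for the macrophage and monocyte list at 8.41, replicate 3 was high for the cardiomyocyte list at 13.06 and for the neutrophil list at 5.67, and replicate 5 was low for the list of Wnt antagonists and Frizzleds at 6.65.

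In sham LV, replicate 5 was high for Fgf7 at 7.17 and low for Blnk, a B cell adaptor, at 6.54. Replicate 6 was low for H19 at 6.47 and high for Clba1 at 6.10, Idh3a at 11.46 and Pde3a at 10.34. Replicate 2 was low for Nppb at 12.12, and replicate 3 was low for Kcnq1 at 9.78 and for the mean level of the sarcomere and Z-disc list at 12.51.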

How the results depend on the processing

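No result changed sign past a threshold, and S-MI against sham gave 0 called clusters in limma under every alternative at an adjusted p of at most 0.05, and 0 at 0.1 with the design otherwise as described, the only setting in which 0.1 was tried. The smallest adjusted p ranged from 0.0532 with array weights to 0.376 without the 4 arrays apart. At an adjusted p of at most 0.2, 3 clusters were higher in S-MI than in sham LV, and S-MI against M-MI LV gave 13 higher and 8 lower.

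Some counts depended on the setting. Without the 30% dimmest clusters, a fold of at least 1.3 was reached by 72 clusters that were higher in S-MI than in sham LV and 23 that were lower. With only the clusters of 1 symbol, which are fewer, 580 were higher and 442 lower at an unadjusted p under 0.05, 25 and 15 reached the fold, and 39 and 29 did not overlap. Median centring left 43 clusters higher without overlap and 67 lower. Without the 4 arrays apart, 173 clusters were lower by the fold against 67 with all arrays, and 605 were higher and 705 lower without overlap, which fewer arrays make easier, and the mast cell median was 0.0329. Among the differences that moved by over 1.5 times without them were Retsat (0.221), Gpm6a (0.816), Pyroxd2 (-0.946), Cytl1 (-0.817), Rxfp1 (-0.13), Sh2d4a (-0.205), Idh3a (-0.105), Adrb1 (0.0649), Grk5 (0.341) and Bmal1 (0.723), and none of the 118 changed sign, while 9 of 48 list medians did. Leaving out any 1 array gave 84 to 184 clusters higher and 63 to 112 lower without overlap, 152 to 240 higher by the fold, the highest without S-MI replicate 3, and 21 of 48 list medians changed sign for at least 1 array, with circadian medians from -0.157 without sham replicate 3 to -0.0369.

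S-MI against L-MI LV had 165 clusters called higher without the 4 arrays apart and 112 with the first component as a covariate, 638 higher and 777 lower at a fold of at least 1.2, and 1203 and 1055 with no fold threshold. Of the 19 genes tested on that contrast, Tas2r121 lost its call without the 4 arrays (0.788, adjusted p = 0.0733) and with the covariate (0.577, adjusted p = 0.207), as did Lgals3 (-0.353, adjusted p = 0.144 and -0.352, adjusted p = 0.164). With the replicate number as a block, S-MI against sham gave 0 calls, a smallest adjusted p of 0.212, and 1070 higher and 798 lower at an unadjusted p under 0.05, and 3 of 6 S-MI arrays correlated best with their own number.

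With 6 rats per group, differences of about a fold of 1.1 or less lay within the median 95% interval of a gene.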
